A study of Mus musculus with 2 samples.

Results

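The regions described here are the 583 MAFK-bound regions of mouse embryonic stem cells whose summit lay within 1 kb of the start site of a noncoding transcript and more than 1 kb from every start site of a protein-coding gene. They were selected by position alone, from the authors' optimal list and the GENCODE vM21 annotation. They made up 3.46% of the 16836 optimal regions on chromosomes 1 to 19 and X. They are called noncoding start regions below. The other regions fell into 1986 protein-coding start regions, with a summit within 1 kb of a protein-coding start site, and 14267 regions away from start sites, with no start site of any kind within 1 kb.

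MAFK binding was measured by chromatin immunoprecipitation with sequencing (ChIP-seq), in which DNA bound by a protein is recovered with an antibody and sequenced. The cells were ES-E14, a male mouse embryonic stem cell line of strain 129/Ola, and the labels give no treatment and 1 group with 2 biological replicates from the same cell source. No second condition or knockout was included, and the control experiment named by the labels was not analysed here. The files hold regions and not reads, so the depth of each replicate is unknown, and all intervals below cover counting error only.

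MAFK is a small MAF protein. It has a DNA-binding and dimerization domain but no activation domain of its own, and it binds DNA either as a homodimer or in a pair with NRF2, BACH1 or another factor of the CNC family. Homodimers bind palindromes of MAF sites, and the pairs bind a composite of an AP-1-like part and a MAF site. Noncoding start sites belong to several kinds of transcription units. Long noncoding genes are usually transcribed by RNA polymerase II, many small RNA genes such as tRNA, Y RNA and 7SK genes are transcribed by RNA polymerase III, and most processed pseudogenes are copies of messenger RNAs that carry no promoter of their own.

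The sequence under the strongest of these regions is shown first, as 61 bases centred on the summit. In the 5 strongest noncoding start regions with an exact composite element, the element nearest to the summit is in capitals. All are from the plus strand of GRCm38 and are named by the nearest noncoding gene.
Gm43020, chr5:43355307-43355367: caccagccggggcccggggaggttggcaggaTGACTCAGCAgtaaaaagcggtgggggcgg
Gm23533, chr10:42308784-42308844: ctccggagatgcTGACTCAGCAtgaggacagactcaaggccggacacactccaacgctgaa
4930578M01Rik, chr15:98982331-98982391: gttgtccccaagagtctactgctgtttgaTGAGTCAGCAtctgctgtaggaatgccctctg
4933435F18Rik, chr4:124333130-124333190: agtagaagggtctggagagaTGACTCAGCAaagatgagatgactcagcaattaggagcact
Gm43412, chr5:123035650-123035710: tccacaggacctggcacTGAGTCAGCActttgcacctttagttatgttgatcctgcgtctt

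The 4 strongest noncoding start regions without the exact composite but with a T-MARE are shown next. The T-MARE is the palindrome of MAF sites, here allowed 2 mismatches. The full palindrome contains the composite, so a T-MARE is not a form separate from it. The capitals mark the 13 bases of the T-MARE on the plus strand of GRCm38.
Gm10829, chr2:35844453-35844513: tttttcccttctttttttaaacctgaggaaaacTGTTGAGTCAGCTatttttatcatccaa
Gm32067, chr13:78483093-78483153: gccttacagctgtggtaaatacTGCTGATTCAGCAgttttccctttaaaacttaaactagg
Gm27169, chr8:87202814-87202874: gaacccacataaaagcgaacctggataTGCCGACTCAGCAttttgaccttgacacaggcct
Gm22133, chr7:45457435-45457495: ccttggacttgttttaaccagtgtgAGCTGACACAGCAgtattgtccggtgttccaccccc

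By the class of the nearest noncoding gene, 314 of the 583 regions (53.9%) were at long noncoding genes, 116 (19.9%) at pseudogenes, 92 (15.8%) at small RNA genes and 61 (10.5%) at genes of the annotation class TEC, which awaits experimental support. The long noncoding genes were 189 times a lincRNA, 80 times an antisense transcript, 39 times a processed transcript, 5 times a sense intronic transcript and 1 time a bidirectional promoter transcript. The small RNA genes were 34 times a miRNA, 24 times an snRNA, 16 times an snoRNA, 16 times a miscellaneous RNA and 2 times an rRNA. Of the pseudogenes, 101 were processed. The nearest genes were 544 distinct genes, and 36 of these were nearest to more than 1 region.

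As a share of all annotated genes of their class, 305 of 9603 long noncoding genes had a noncoding start region (3.18%, 95% Wilson interval 2.84 to 3.55%), and so did 62 of 3210 TEC genes (1.93%, 1.51 to 2.47%). The share was 1.75% (1.45 to 2.11%) of 6068 small RNA genes and 0.920% (0.769 to 1.10%) of 12713 pseudogenes. The rule leaves less room for such a region at genes whose start sites lie beside protein-coding ones. Of the 7437 long noncoding genes with a start site over 2 kb from a protein-coding one, 3.82% had a noncoding start region. Counting summits of any class within 1 kb of a start site, the shares were 4.73% of long noncoding genes, 2.49% of TEC genes, 2.39% of small RNA genes and 1.03% of pseudogenes, against 8.73% of 21755 protein-coding genes. The intervals of the share with a noncoding start region lay apart for long noncoding genes and pseudogenes and overlapped for small RNA and TEC genes. A gene was counted if any of its start sites qualified. The shares were not adjusted for the number of start sites per gene, so they do not rank the classes per start site.

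Around noncoding start sites, summits were less dense than around protein-coding ones and denser than elsewhere. There were 9.82 summits per Mb (95% exact binomial interval 9.04 to 10.6) in the 59.4 Mb within 1 kb of a noncoding start site alone. The density was 20.4 per Mb (19.5 to 21.3) in the 97.5 Mb within 1 kb of protein-coding start sites and 5.94 per Mb (5.84 to 6.04) in the remaining 2403 Mb.

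**Figure D1:**
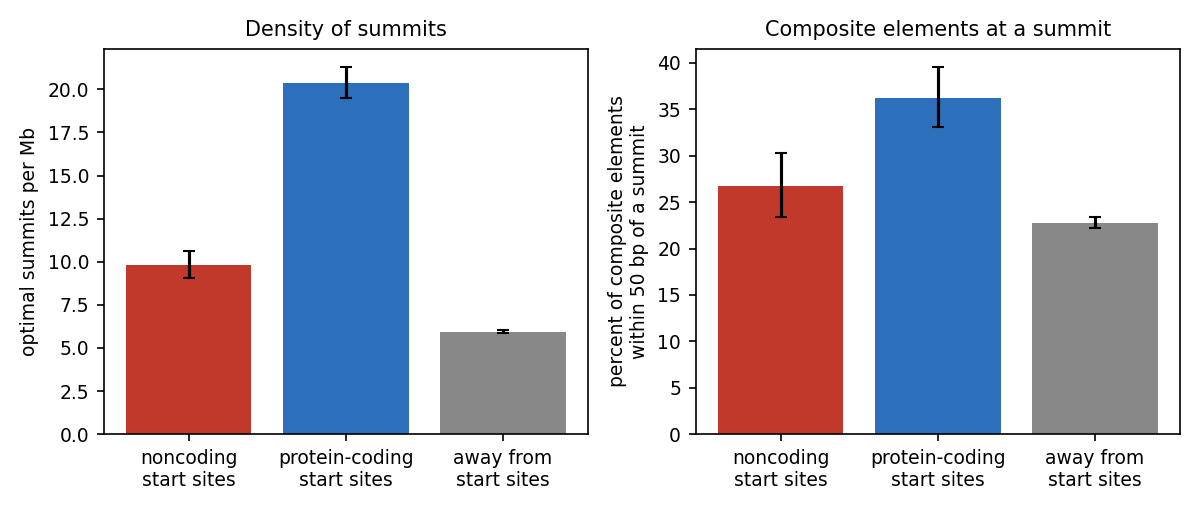
Left, optimal MAFK summits per Mb within 1 kb of noncoding start sites, within 1 kb of protein-coding start sites and elsewhere, with 95% exact binomial intervals. Right, percent of all exact composite elements in the same parts of the genome that lay within 50 bp of a summit, with 95% Wilson intervals; noncoding start sites lie between the others in both panels (9.82 summits per Mb and 26.7% of elements).

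The summits lay farther from their start sites than those at protein-coding genes. The median distance to the nearest start site was 394 bp for noncoding start regions and 254 bp for protein-coding start regions. Within 100 bp lay 93 noncoding start regions (16.0%), against 27.9% of the protein-coding start regions, and 501 to 1000 bp away lay 236 (40.5%), against 28.4%. The rule fixes the outer limit of both distributions at 1 kb, so their difference within it is given as a description. Of the 583 summits, 310 were upstream of the nearest start site and 273 at or downstream of it. The first 200 bp upstream and the first 100 bp downstream held the tallest bars of the plot of positions.

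**Figure D2:**
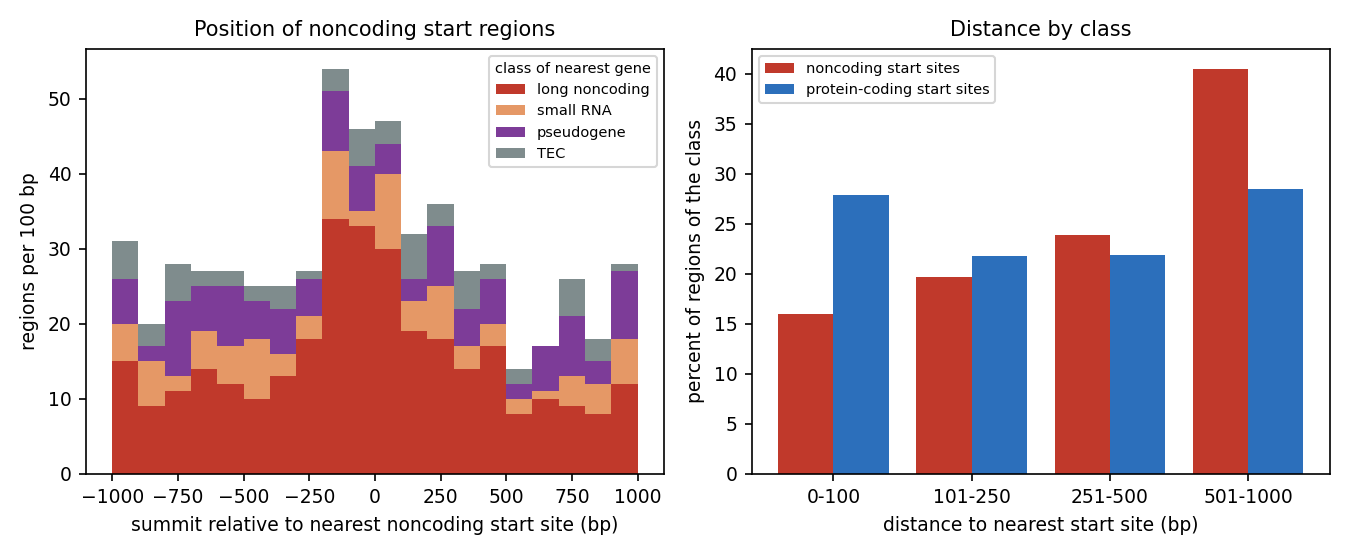
Left, number of noncoding start regions in 100 bp bins of the summit position relative to the nearest noncoding start site (negative is upstream), stacked by class of that gene. Right, percent of noncoding start regions and of protein-coding start regions at each distance from their nearest start site; 16.0% of noncoding start regions and 27.9% of protein-coding start regions lay within 100 bp.

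Most noncoding start regions were far from protein-coding promoters. The median distance to the nearest protein-coding start site was 20790 bp, and it was 22854 bp for the regions away from all start sites. The nearest protein-coding start site was 1000 to 10000 bp away for 194 regions, 10000 to 50000 bp away for 211 and farther for 178. An intron of a protein-coding gene held 174 of the 583 summits (29.8%), against 43.7% of the summits away from start sites, and an exon held 14 (2.40%), against 3.48%. The remaining 395 (67.8%) were outside protein-coding genes, against 52.8%. Of the 188 inside a protein-coding gene, the noncoding gene was on the strand of its host in 69 and on the opposite strand in 119.

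At the limit of the rule, the 3 noncoding start regions whose summits were nearest inside 1 kb were 999, 996 and 995 bp from their start site, with signal values of 42.1, 57.3 and 102. The 3 regions nearest outside were 1001, 1002 and 1002 bp away, with signal values of 67.2, 17.6 and 43.4.

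The signal value is the authors' own score of each region, deposited without its scale, and it serves only to describe and rank regions. It had a median of 28.8 over the noncoding start regions (quartiles 19.1 and 52.7, range 3.91 to 312). The median was 24.7 over protein-coding start regions, 28.3 over regions away from start sites and 27.8 over all regions. In replicate 1's relaxed list, the median was 13.4 over noncoding start regions, 11.7 over protein-coding start regions and 14.0 away from start sites. In that of replicate 2, the medians were 15.5, 14.4 and 14.8 in the same order. The noncoding start regions were thus above the protein-coding start regions in both replicates, while their order against the regions away from start sites differed between the replicates. Over protein-coding start regions outside CpG-rich sequence (defined below), the medians were closer, at 26.6 in the optimal list, 12.7 in replicate 1 and 15.4 in replicate 2.

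By class of gene, the median signal was 33.5 at TEC genes, 32.0 at small RNA genes, 28.7 at pseudogenes and 26.7 at long noncoding genes. The quartiles of the classes overlapped widely, and at long noncoding genes they were 18.9 and 53.5. Among the strongest 10% of all regions were 63 noncoding start regions, which is 10.8% of them.

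In the replicates' own thresholded lists, 267 of the 583 regions overlapped the list of replicate 1 (45.8%; background 44.4% of all regions), and 328 overlapped that of replicate 2 (56.3%; background 53.0% of all regions). Both lists shared 230 of them (39.5%), against a background of 35.4% of all regions. Replicate 1 alone listed another 37, replicate 2 alone listed 98, and 218 were in neither list. These counts follow from the shares above, whose backgrounds are given beside them, and are not a separate result. The share in both lists was higher than the 30.3% of protein-coding start regions (odds ratio 1.50, 95% interval 1.24 to 1.81, adjusted exact p = 8.90e-05 by Fisher's exact test, two-sided, Benjamini-Hochberg over 6 tests). It was not shown to differ from the 36.0% of regions away from start sites (odds ratio 1.16, 0.979 to 1.37, adjusted exact p = 0.104). Among the strongest 50% of regions, the difference from protein-coding start regions did not pass the test (odds ratio 1.31, adjusted exact p = 0.0971). Of the protein-coding start regions outside CpG-rich sequence (defined below), 35.1% were in both lists (95% Wilson interval 32.5 to 37.7%). Of those inside it, 22.0% were. The interval for noncoding start regions was 35.6 to 43.5%, and the parts were not tested separately. The replicates' lists come from another processing run than the optimal list.

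Of the noncoding start regions, 570 had a value in the relaxed lists of both replicates, with a Spearman rank correlation of 0.756 across regions, which are not independent replicates. It was 0.674 over protein-coding start regions and 0.687 over regions away from start sites. Being in both lists followed the signal closely. The share was 2.74% among the 25% of lowest signal and 94.5% among the 25% of highest signal. Signal and lists come from the same replicates, so this is a description. Among the strongest 50% of all regions, the share in both lists was high in every class. It was 73.4% for noncoding start regions, 67.8% for protein-coding start regions and 68.5% away from start sites.

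**Figure D3:**
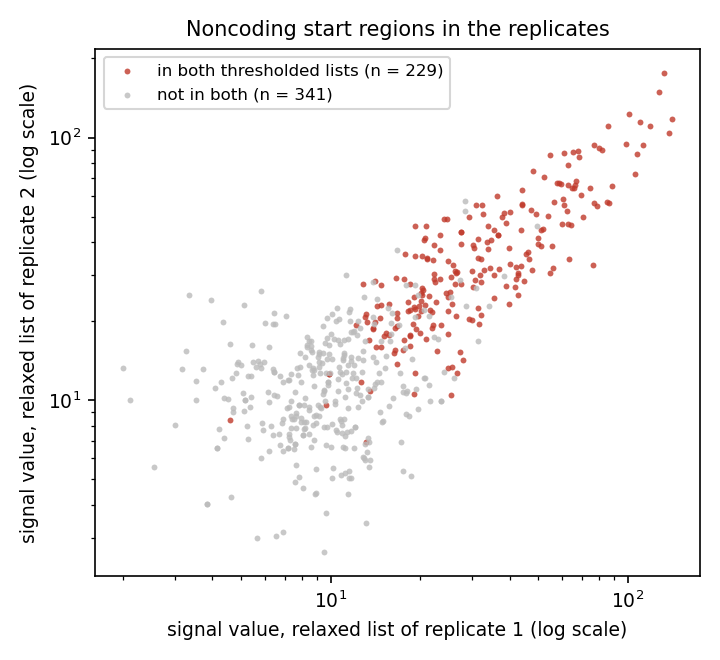
Signal value of each noncoding start region in the relaxed lists, for replicate 1 (x axis, log scale) and for replicate 2 (y axis, log scale). Points in red are the 229 regions that overlap the thresholded lists of both replicates, which lie mostly at the upper right, and points in grey the other 341.

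The strongest noncoding start region was at Mir22hg, the host gene of miR-22. It spanned 75460394 to 75460701 on chromosome 11, 987 bp upstream of the Mir22hg start, and had a signal value of 312, with 133 in replicate 1 and 177 in replicate 2. It ranked 73 among all regions. It held a MAF core and an ARE core but no composite element, AP-1 element or T-MARE, and its nearest protein-coding start site, of Tlcd2, was 1163 bp away. A second noncoding start region, nearest to Mir22 itself, lay at 75462966 to 75463209 with a signal value of 157, and with 67.8 in replicate 1 and 88.8 in replicate 2. It held a MAF core and none of the other forms. Both regions were in the lists of both replicates. A closer summit, 276 bp from a Mir22hg start site, was counted at a protein-coding start site.

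Behind Mir22hg, the region upstream of the lincRNA gene Gm43020 had a signal value of 279 (127 in replicate 1 and 149 in replicate 2). Its summit was 78 bp from the start site and 118022 bp from the nearest protein-coding one. The composite element printed above lay near its summit. The region in the TEC gene Gm10829, inside an intron of Ttll11, had a signal value of 259 (141 and 118 in replicates 1 and 2), and that upstream of the lincRNA gene Gm32067 had 242 (138 and 104). Gm32067 lay 283366 bp from its nearest protein-coding start site, that of the nuclear receptor gene Nr2f1. The next were at Gm23533 with a signal value of 226 (119 and 111), a miscellaneous RNA gene, at the lincRNA gene Gm43241 with 226 (101 and 123) and at 4930578M01Rik with 226 (109 and 115). The region at Gm43241 held none of the MAF-type elements within 50 bp of its summit, unlike the other regions named so far.

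The remaining 8 of the 15 strongest regions shared by both lists included those at 4933435F18Rik, Gm43412, Scarletltr, Gm27169, Mir6360, Gm22133 and Gm12762. The signal values of the 8 were between 172 and 208, with 77.0 to 112 in replicate 1 and 72.9 to 111 in replicate 2. Of the 8, 6 held the exact composite, and Gm27169 and Gm22133 held a T-MARE without it. The region at the annotated miRNA gene Gm22133 was 1334 bp from the start site of Ftl1, which encodes the ferritin light chain. Gm12762, 20 bp downstream of its start site, was the only one of the 15 in CpG-rich sequence.

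Among the strongest regions at pseudogenes were those at Gm48926 (signal value 153), Gm49031 (138) and Gm21839 (132). At TEC genes they were at Gm10829 (259), Gm43412 (196), Gm49204 (155) and Gm45683 (133), and at small RNA genes at Gm23533 (226), Mir6360 (174), Gm22133 (174) and Mir22 (157). These 11 regions were all in the lists of both replicates.

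The regions were then searched for MAF-type elements within 50 bp of the summit, on either strand. The exact composite was TGACTCAGCA or TGAGTCAGCA, the MAF core TGCTGA, the ARE core (of the antioxidant response element) TGACNNNGC or TGAGNNNGC, and the AP-1 element TGACTCA or TGAGTCA. These overlap. Each composite element contains an AP-1 element, a MAF core on its other strand and an ARE core.

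In noncoding start regions, the MAF-type elements were more frequent than at protein-coding start sites and at or below their frequency away from start sites. The exact composite was in 157 of 583 noncoding start regions (26.9%, 95% Wilson interval 23.5 to 30.7%; background 28.2% of all regions). It was in 14.4% of protein-coding start regions (odds ratio 2.20, 1.76 to 2.75, adjusted exact p = 1.28e-10 by Fisher's exact test, two-sided, Benjamini-Hochberg over 24 tests) and in 30.2% of regions away from start sites (odds ratio 0.851, 0.706 to 1.03, adjusted exact p = 0.167). In the replicates' own lists, the share averaged 33.2 ± 1.10% at noncoding start sites, 20.8 ± 3.31% at protein-coding start sites and 37.9 ± 2.01% away from start sites (SD, n = 2 lists). The replicates' shares of the classes did not overlap. Against the CpG-poor protein-coding start regions alone, 20.1% of which held the composite, the odds ratio was 1.46 (adjusted exact p = 0.00673).

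In equally wide windows placed 1000 bp upstream and downstream of the summits, the composite was found in 0.515% of cases for noncoding start regions and 0.0504% for protein-coding start regions. Of 33261 windows of 101 bp centred on noncoding start sites throughout the genome, 0.111% held it. The element was thus frequent at the summits and rare in the surrounding sequence and at noncoding start sites in general. Of the same start site windows, 8.66% held the MAF core, 9.66% the ARE core, 0.511% the T-MARE and 1.53% the AP-1 element.

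The MAF core was in 344 noncoding start regions (59.0%; background 62.8% of all regions), against 40.4% of protein-coding start regions (adjusted exact p = 6.26e-14 by Fisher's exact test) and 66.1% of regions away from start sites (odds ratio 0.739, adjusted exact p = 0.00201). The T-MARE was in 204 (35.0%; background 39.2% of all regions), against 21.7% (adjusted exact p = 1.11e-09) and 41.8% (odds ratio 0.750, adjusted exact p = 0.00379). The ARE core was in 329 (56.4%; background 60.3% of all regions), against 45.9% (adjusted exact p = 4.38e-05) and 62.4% (odds ratio 0.779, adjusted exact p = 0.0106). The AP-1 element was in 221 (37.9%; background 37.8% of all regions), against 23.9% (adjusted exact p = 4.54e-10) and 39.7% (adjusted exact p = 0.490). All 5 forms were thus more frequent than at protein-coding start sites, and the MAF core, the T-MARE and the ARE core were less frequent than away from start sites. Against CpG-poor protein-coding start regions alone, neither the ARE core nor the T-MARE passed the test (adjusted exact p = 0.358 and 0.0705). The ARE core's difference from regions away from start sites passed in neither replicate's own list (adjusted exact p = 0.407 in replicate 1 and 0.259 in replicate 2). It passed in 5 of 10 alternatives to the main setting. Among the strongest 50% of regions, the ARE core's difference from protein-coding start regions did not pass Fisher's exact test either (odds ratio 1.25, adjusted exact p = 0.299).

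**Figure D4:**
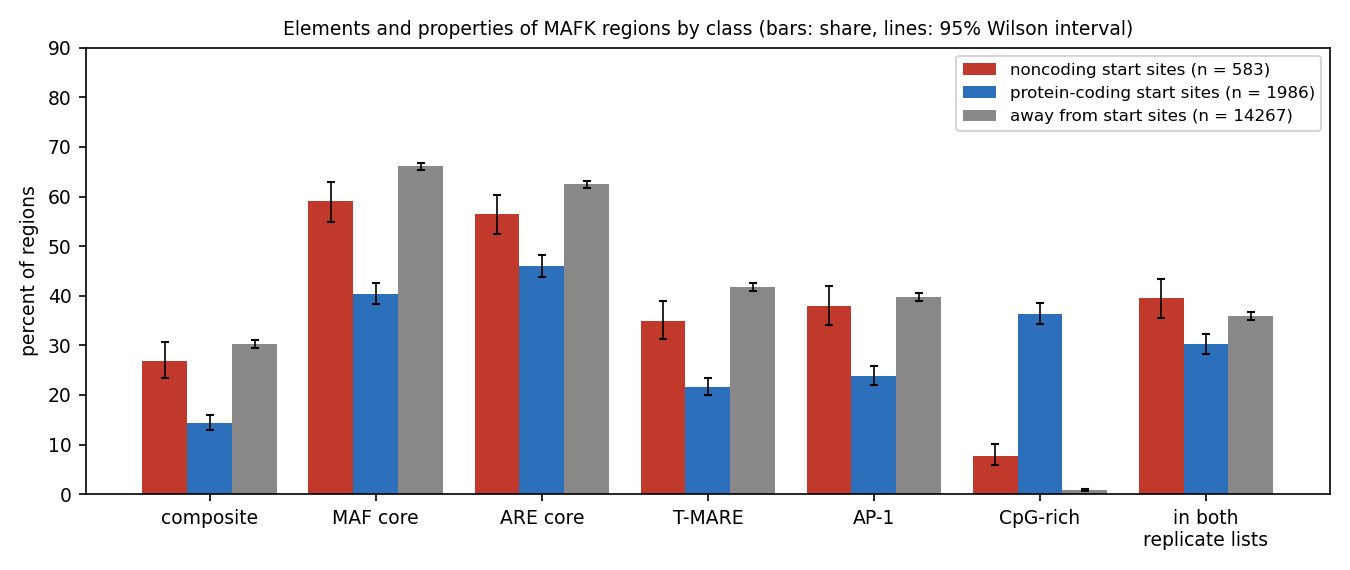
Percent of noncoding start regions, protein-coding start regions and regions away from start sites that hold each MAF-type element within 50 bp of the summit, lie in CpG-rich sequence or overlap the thresholded lists of both replicates, with 95% Wilson intervals. For each of the 5 elements the noncoding start regions lie above the protein-coding start regions, and their CpG-rich share (7.72%) is far below that of protein-coding start regions (36.4%).

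Elements of other factors were rare. The ETS element CCGGAAGT was in 4 noncoding start regions (0.686%; background 0.291% of all regions), against 1.61% of protein-coding start regions (adjusted exact p = 0.176) and 0.0911% of regions away from start sites (adjusted exact p = 0.0106). The NRF1 element, allowed 1 mismatch, was in 2 (0.343%; background 0.362% of all regions), against 1.61% (adjusted exact p = 0.0320) and 0.189% (adjusted exact p = 0.421). In the list of either replicate alone, neither difference passed the test. The GC box GGGGCGGGG was in 5 (0.858%; background 0.535% of all regions), against 2.32% and 0.273% (adjusted exact p = 0.0564 for both). In the replicates' own lists, its difference from regions away from start sites passed the test (adjusted exact p = 0.00545 in replicate 1 and 0.00272 in replicate 2). The CREB-type element TGACGTCA was in 4 (0.686%; background 0.279% of all regions), the CTCF core in 8 (1.37%; background 1.31% of all regions), the SOX-OCT element in 1 (0.172%; background 0.232% of all regions) and the shuffled control GTTCAG in 27 (4.63%; background 5.67% of all regions), and none of these differences passed the test (adjusted exact p from 0.0869 to 1). The CTCF core passed against protein-coding start regions in the list of replicate 2 (odds ratio 4.70, adjusted exact p = 0.0463), and the CREB-type element passed against regions away from start sites for long noncoding genes alone (odds ratio 5.92, adjusted exact p = 0.0196). Of the start site windows, 0.325% held the ETS element, 0.358% the NRF1 element, 0.436% the GC box, 0.192% the CREB-type element, 0.0812% the CTCF core, 0.0301% the SOX-OCT element and 6.20% the shuffled control.

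Within 300 bp of the summit, 171 noncoding start regions held a composite element, and in 141 of these (82.5%) it was within 25 bp, with a median distance of 10.5 bp. Among the 157 regions with a composite within 50 bp, it was on the strand of the noncoding transcript in 82 and on the opposite strand in 75. The share with a composite was 16.1% within 100 bp of a start site and 32.6% at 501 to 1000 bp. At protein-coding start regions, it was 8.12% and 23.7% at the same distances.

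The share with a composite also differed along the signal. It was 11.6% among the 25% of lowest signal and 39.7% among the 25% of highest signal. The other classes rose with the signal as well. Among the strongest 50% of all regions, the composite was in 36.2% of noncoding and 23.9% of protein-coding start regions. Away from start sites it was in 39.0%. In the full list, these shares were 26.9%, 14.4% and 30.2%. None of the 5 MAF-type elements was found in 133 noncoding start regions (22.8%), whose median signal was 20.6, against 36.3 for those with the composite. Of these 133, 35 were in both replicates' lists (26.3%), against 79 of the 157 with the composite (50.3%).

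Of the 644 exact composite elements in the territory of noncoding start sites, 172 were within 50 bp of a summit (26.7%, 23.4 to 30.3%). At protein-coding start sites 306 of 844 were (36.3%), and away from start sites 4864 of 21337 (22.8%). The share at noncoding start sites was lower than at protein-coding ones (odds ratio 0.641, 0.512 to 0.802, adjusted exact p = 0.000217) and higher than elsewhere (odds ratio 1.23, 1.03 to 1.47, adjusted exact p = 0.0223; both by Fisher's exact test, two-sided, adjusted over 2 tests). This comparison was chosen after the other results were seen.

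CpG-rich sequence, which marks many promoters of widely expressed genes, was defined by a GC share of at least 50% and an observed over expected CpG ratio of at least 0.6 in 500 bp. It held 45 of the 583 noncoding start regions (7.72%; background 5.28% of all regions), against 36.4% of protein-coding start regions (odds ratio 0.146, 0.106 to 0.201, adjusted exact p = 4.53e-47) and 0.848% of regions away from start sites (odds ratio 9.78, 6.87 to 13.9, adjusted exact p = 3.45e-25; Fisher's exact test, two-sided). Of 33261 noncoding start sites throughout the genome, 4.13% were in such sequence. Noncoding start sites in general were thus also more often CpG-rich than the regions away from start sites. Of the 45 noncoding start regions, 33 were at long noncoding genes, 6 at small RNA genes, 3 at pseudogenes and 3 at TEC genes. Their median distance to the start site was 167 bp, against 412 bp for the 538 CpG-poor ones. The composite was in 4 of the 45 (8.89%) and in 153 of the 538 (28.4%), and the median signals were 23.5 and 29.0.

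Soft-masked sequence, the part of the reference marked as repeats, held 86 of the summits of noncoding start regions (14.8%; background 16.4% of all regions), against 11.3% of protein-coding start regions (odds ratio 1.36, adjusted exact p = 0.0377) and 17.1% of regions away from start sites (odds ratio 0.836, adjusted exact p = 0.144; Fisher's exact test, two-sided). The first difference missed the threshold of Fisher's exact test in the list of replicate 1 (adjusted exact p = 0.305), or for long noncoding genes alone (adjusted exact p = 0.311). Of the noncoding start sites throughout the genome, 19.6% were soft-masked.

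The composite, the MAF core and the T-MARE were most frequent in the regions at pseudogenes, while the ARE core was in 66.4% of these and in 67.2% of the regions at TEC genes. The composite was in 46 of 116 of them (39.7%, 31.2 to 48.8%), against 24.5% (20.1 to 29.6%) at long noncoding genes, 23.9% (16.4 to 33.6%) at small RNA genes and 19.7% (11.6 to 31.3%) at TEC genes. The MAF core was in 76.7% (68.3 to 83.5%) of the regions at pseudogenes and in 53.8% (48.3 to 59.3%) at long noncoding genes, and the T-MARE in 50.9% and 30.3%. The classes were not tested against each other. The share in both replicates' lists ran the other way, at 34.5% for pseudogenes, 38.5% for long noncoding genes, 44.6% for small RNA genes and 45.9% for TEC genes, with intervals that overlap. Their median distance from the start site was 524 bp at pseudogenes and 318 bp at long noncoding genes.

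**Figure D5:**
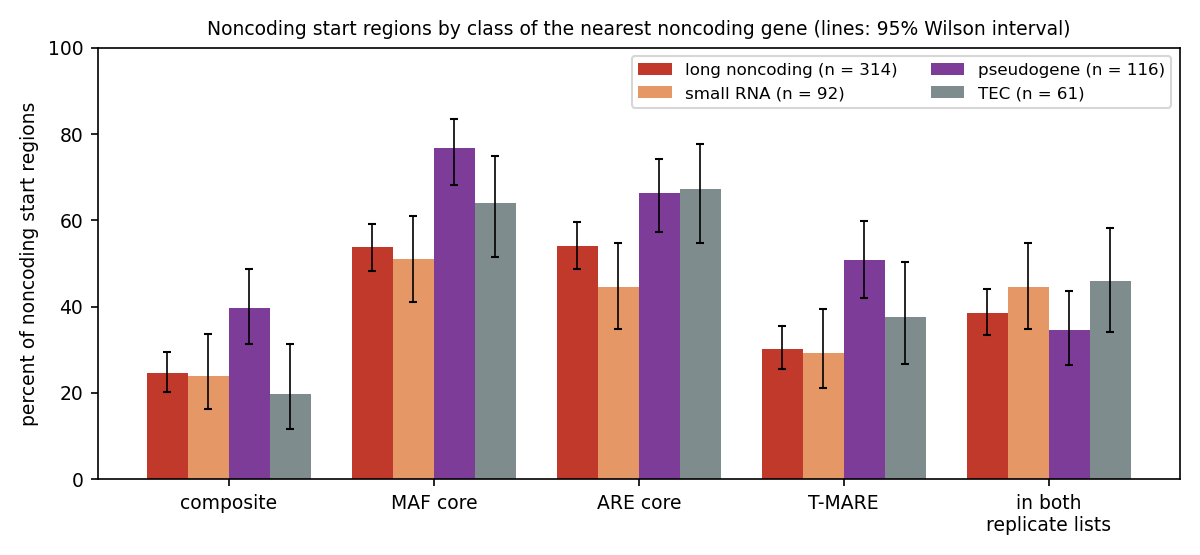
Percent of noncoding start regions with each element within 50 bp of the summit and percent in the thresholded lists of both replicates, by class of the nearest noncoding gene, with 95% Wilson intervals. Regions at pseudogenes have the highest share with the composite (39.7%), the MAF core (76.7%) and the T-MARE (50.9%).

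Some noncoding start regions shared sequence with each other. In 8 groups, with 27 regions in all, the 101 bp around the summits shared at least 24 bases with another region of the group. The largest group had 11 regions on 8 chromosomes, 5 of them at pseudogenes, and 10 of their summits were soft-masked. The exact composite was in 9 of the 11, and their signal values were between 15.7 and 88.6, with 4 of them in both replicates' lists. The strongest 4 are shown from GRCm38 with the composite in capitals, those of Gm12245, AC122253.1 and Gm37931 from the minus strand and that of Gm12939 from the plus strand. They share the bases before the element.
Gm12245, chr11:57949238-57949298: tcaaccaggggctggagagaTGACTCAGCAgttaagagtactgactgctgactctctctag
Gm12939, chr4:126983841-126983901: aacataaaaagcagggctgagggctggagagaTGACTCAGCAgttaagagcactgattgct
AC122253.1, chr17:79981965-79982025: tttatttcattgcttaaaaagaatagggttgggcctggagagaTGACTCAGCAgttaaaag
Gm37931, chr1:74307548-74307608: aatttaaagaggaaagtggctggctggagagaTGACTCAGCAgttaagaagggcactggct

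Linked step by step through all optimal regions, the group that holds this sequence had 1080 regions. Of these, 37 were noncoding start regions, 78 protein-coding start regions and 965 away from start sites. Regions linked only through others need not share the printed sequence, so the group is not shown to be a single family. In all, 82 noncoding start regions (14.1%) shared 24 bases with some other optimal region, against 6.60% of protein-coding start regions and 12.4% of regions away from start sites. Of the 111 regions at pseudogenes that shared no 24 bases with another noncoding start region, 41 held the composite (36.9%), against 67 of 300 at long noncoding genes (22.3%). With 1 region kept for each shared sequence, the composite remained more frequent in noncoding start regions (23.8%) than in protein-coding start regions (13.3%; odds ratio 2.04, adjusted exact p = 1.98e-07).

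A further set of noncoding start regions lay at tRNA genes, which RNA polymerase III transcribes from promoters inside the gene. Within 100 bp of a RefSeq tRNA gene were 21 of the 583 summits (3.60%, 2.37 to 5.44%), against 1.61% (1.14 to 2.27%) of protein-coding start regions and 1.25% (1.08 to 1.44%) of regions away from start sites. Of the 403 tRNA genes, 232 were within 100 bp of an optimal summit of any class. The composite, the T-MARE and the ARE core were in 0 of the 21 regions, and 19 held none of the 5 MAF-type elements. Of all noncoding start regions, 22.8% held none. A MAF core was in 1 of the 21 and an AP-1 element in 1. The signal of the 21 was not low. It had a median of 63.9 (23.2 to 143), and 17 of the 21 were in both replicates' lists. The share in both lists was 39.5% of all noncoding start regions and 35.4% of all regions. These values were looked at after the other results were seen, and the difference between the classes was not tested.

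The annotation gave 14 of these 21 regions to long noncoding genes, 6 to small RNA genes and 1 to a pseudogene, and 11 of them were on chromosome 13. Of the 11, 4 were nearest to n-TStga1, a tRNA gene that GENCODE lists as a miRNA gene and RefSeq as a serine tRNA gene. Each of the 4 lay at a different tRNA gene of the cluster, with signal values of 143 at n-TGgcc6, 80.7 at n-TQttg4, 63.9 at n-TMcat6 and 46.0 at n-TStga1 itself. The sequences at n-TStga1 and at n-TStga2, which is nearest to Gm44456 and had a signal value of 57.5, shared 56 bases, in capitals here. The first is from the plus and the second from the minus strand of GRCm38.
n-TStga2, chr13:21924951-21925011: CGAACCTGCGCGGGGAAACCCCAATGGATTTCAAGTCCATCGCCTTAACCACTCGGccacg
n-TStga1, chr13:23518156-23518216: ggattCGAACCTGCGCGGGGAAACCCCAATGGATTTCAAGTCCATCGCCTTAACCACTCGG

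Reads from such copies may map to either, so the values of this pair are uncertain. The strongest noncoding start regions at a tRNA gene on other chromosomes were near Gm16170 on chromosome 11 (signal value 130, with 69.6 in replicate 1 and 60.2 in replicate 2), Gm40190 on chromosome 3 (108, with 64.2 and 46.4) and Gm26912 on chromosome 12 (101, with 51.8 and 44.9). In all 3, the summit was inside the tRNA gene and 136 to 446 bp from the start site of the noncoding gene. Without the regions at tRNA genes, the composite share of the remaining 562 noncoding start regions was 27.9%, against 14.6% of protein-coding start regions (adjusted exact p = 3.20e-11 by Fisher's exact test).

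Of a list of 96 genes chosen as well-known noncoding genes, 91 were annotated, and 19 of these held a noncoding start region. Among the stem cell and lineage genes, Tunar, Platr17 and Platr25 were annotated as protein-coding. The rule left them no such region, yet they are counted below. The share was 3 of 6 for RNA components of enzymes and other abundant small RNAs, 5 of 23 for stem cell and lineage genes, 6 of 24 for microRNAs and their hosts, 3 of 14 for snoRNA and growth hosts, 1 of 13 for X inactivation and imprinting and 1 of 11 for nuclear and abundant RNAs. Among the microRNAs, Mir302a, Mir302b, Mir302c, Mir302d and Mir367 shared 1 region, so the shares count genes and not separate regions. Of all 32088 noncoding genes, 590 (1.84%) held a noncoding start region. The list was chosen with earlier results of these data known, so the 2 shares are given side by side and not compared.

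Among the small RNA genes, Rn7sk, which makes the 7SK RNA that holds back the elongation factor P-TEFb, had overlapping regions of signal value 35.3 and 14.6. The stronger lay 231 bp downstream of its start site and was in the list of replicate 1 only. The Y RNA genes Rny1 and Rny3, whose RNAs bind the Ro60 protein, had regions of signal value 35.4 (25.3 in replicate 1 and 10.5 in replicate 2) and 41.3 (27.8 and 14.2), both in the lists of both replicates. Rny3 had another region of 29.7. None of these regions held a composite, a T-MARE or a MAF core, and the weaker one at Rny3 held an ARE core. All 3 genes are transcribed by RNA polymerase III. A summit near Rmrp was counted at a protein-coding start site.

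Among the stem cell and lineage genes, Bvht, known for its role in cardiac commitment of mouse stem cells, had a region of signal value 120 with 48.1 in replicate 1 and 74.5 in replicate 2, 261 bp downstream of its start site and with a composite. Lncenc1, a long noncoding gene of naive embryonic stem cells, had 58.0 (34.0 and 22.8), with a composite, and was in the list of replicate 1 only. Platr6 had 41.2 (19.7 and 20.9) in both lists, and Platr22 17.7 (8.93 and 8.79) in neither. Sox2ot, which overlaps the pluripotency gene Sox2, had a region of 27.1 in neither list, 10984 bp from the Sox2 start site. Of these 5, Bvht and Platr6 were thus called in both replicates.

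Of the other listed genes, the region near Lncpint, a p53-induced gene, was nearest to the start site of 2210408F21Rik and had a signal value of 85.8 (38.8 and 47.2) in both lists, with an ARE core but no composite, T-MARE or MAF core. Gas5, an snoRNA host gene tied to growth arrest, had a region of 30.8 with a composite, in neither list. Snhg15 had 26.4, Snhg5 10.3 and the imprinted antisense gene Kcnq1ot1 overlapping regions of 15.9 and 9.32, all in neither list. No summit lay within 1 kb of Xist, Tsix, H19, Neat1 or Malat1, for which the nearest summits were 39362, 3623, 115511, 4344 and 7689 bp away.

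Start sites of 41 miRNA genes were within 1 kb of a noncoding start region, and RefSeq held sequences for 26 of them. The mature miRNAs of the best known among them are given with the seed, bases 2 to 8, in capitals, to show which miRNAs sit beside the regions. The files measure binding and not the miRNAs.
miR-22-3p: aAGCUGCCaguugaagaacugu
miR-181a-5p: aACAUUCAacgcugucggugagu
miR-214-3p: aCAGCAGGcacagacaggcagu
miR-302b-3p: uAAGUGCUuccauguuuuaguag
miR-302d-3p: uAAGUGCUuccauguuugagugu

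The 2 miR-302 forms share their seed. The genes Mir302a, Mir302b, Mir302c, Mir302d and Mir367, a cluster typical of pluripotent cells, shared 1 region in an intron of Larp7. It had a signal value of 9.46, no relaxed value in replicate 1 and 7.82 in replicate 2, and it was in neither thresholded list. It was far weaker than the 312 and 157 of the regions beside miR-22. The region upstream of Mir181a-2 had a signal value of 40.0 (12.8 and 27.6) and that upstream of Mir214 33.2, and both held a composite and were in both lists.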

How the data were processed

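MAFK ChIP-seq was measured in 2 biological replicates of ES-E14 cells. Per the deposited text notes, the optimal, conservative and relaxed lists come from a first processing run on mm10, and the replicates' own thresholded lists from a second run with other alignments. Neither the aligner nor the peak caller is given in the sources used here. The signal value is a score the authors deposited without its scale. The authors also deposited a −log10 q-value per region, which was not used. Of 16865 optimal regions, 29 off chromosomes 1 to 19 and X were left out. Regions overlapped where at least 1 bp was shared. Start sites came from GENCODE vM21, sequence from GRCm38, and tRNA and miRNA sequences from RefSeq GRCm38.p6.

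The 583 regions and the lists were chosen with earlier results of these data known. Shares were compared by Fisher's exact test, two-sided, with Benjamini-Hochberg adjustment over 24 element tests and over 6 property tests at a threshold of 0.05. The test was checked on simulated counts of independent regions with common elements. That check does not cover rare elements or regions that share sequence. Regions are not independent replicates, so p-values describe these lists. The labels give both replicates 1 biosample, so their spread may be technical.

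Named are the 15 strongest regions in both replicates' lists, the 4 strongest of each gene class, the listed genes with a region, and the 3 regions on either side of 1 kb, except 1 region that is not reported here. The regions at tRNA genes, those that share sequence, and the miRNAs were named after their values were seen. Alternatives were each replicate's list, the conservative list, the strongest 50% of regions, other distances from start sites, long noncoding genes alone, other window widths, 1 mismatch in the composite, an overlap of 50%, and 2 added after the data were seen (1 region per shared sequence, and no regions at tRNA genes). Python 3.11.15, NumPy 2.4.6, pandas 2.3.3, SciPy 1.17.1 and pysam 0.24.0 were used.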

Additional observations from a re-analysis of the deposited data

How the results depend on the processing

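The odds ratio of the composite element in noncoding start regions against protein-coding start regions was between 1.46 and 2.45 over 12 alternatives, with adjusted p-values (Fisher's exact test) from 3.20e-11 to 0.00673. Against regions away from start sites it was between 0.679 and 0.887 over 11 alternatives, and it passed the test with start sites within 500 bp (0.679), with start sites within 2 kb (0.841) and with 1 mismatch allowed (0.807). CpG-rich sequence kept its direction and passed against both classes under all 8 alternatives. The share in both replicates' lists against protein-coding start regions did not pass among the strongest 50% (odds ratio 1.31) and passed in the other 7. Soft-masked summits against protein-coding start regions gave odds ratios of 1.27 to 2.16 in the lists of single replicates, and did not pass in that of replicate 1, with start sites within 500 bp (1.33) or for long noncoding genes alone (1.22). Against regions away from start sites they passed with start sites within 500 bp (0.702).

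The number of noncoding start regions was 277 to 352 in the lists of single replicates, 568 in the conservative list, 301 among the strongest 50%, 372 within 500 bp (2.21% of the list), 948 within 2 kb (5.63%) and 320 for long noncoding genes alone (1.90%). The genes with such a region numbered 291 to 354 in single replicates, and 314, 376, 965 and 305 in the last 4 settings. The cause of these shifts beyond fewer regions or start sites was not tested. Of the 231 values for single elements outside the composite, 196 kept their side of the threshold, and 0 reversed a difference that had passed.

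No paired analysis was possible because both replicates belong to 1 group. Read depth is unknown, so it cannot be said which regions a deeper library would add. The replicates' own lists come from another processing run, repeats and copies can share reads, and 25 noncoding start regions overlap another one. Start sites come from the annotation, not from transcripts measured in these cells.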
